A study of Rattus norvegicus with 19 samples.

Results

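The genes described here encode the proteins of the cytosolic ribosome in rat deep motor cortex. They were chosen by name: every probe set annotated to 1 symbol that begins with Rpl or Rps and a number, or that is Rplp0, Rplp1, Rplp2 or Rpsa, with ribosomal S6 kinases, pseudogene names and mitochondrial ribosomal proteins left out. Where a gene had several such probe sets, the one of highest mean signal stands for it. This gave 47 genes of the 14217 genes with a probe set of 1 symbol. Of them, 29 encode proteins of the large (60S) subunit, 14 encode proteins of the small (40S) subunit, and 4 carry a paralog suffix (Rpl3l, Rpl7l1, Rpl26l1 and Rpl39l1). Rplp1, Rplp2, Rps19, Rps27a and Rpl10 were not among the probe sets of 1 symbol, so the P stalk is represented by Rplp0 alone.

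The RNA came from adult female Fischer 344 rats and was hybridised to 19 Affymetrix rat arrays in 6 groups. All tissue was the deep part of the limb areas of motor cortex, where the layer V neurons lie whose axons form the corticospinal tract. The controls have 4 arrays. The lesion groups have 3 arrays per time, from tissue taken 1, 3, 7, 14 or 49 days after a wire knife cut the dorsal columns at the third cervical segment. Whether the controls were sham-operated is not stated in the labels. The cut lies in the spinal cord, far from the sampled cortex, and severed neurons were 1 cell type among the neurons, glia and vessels of the tissue. The labels name separate samples without saying that they came from separate animals, so p-values measure the spread between these samples. In bulk tissue, fewer cells of a type and less RNA per cell cannot be told apart.

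The cytosolic ribosome consists of a small subunit, which reads the mRNA, and a large subunit, which forms the peptide bond. Cells make their proteins in matched amounts, and their mRNAs are among the most abundant of any cell. Most of these mRNAs begin with a terminal oligopyrimidine (TOP) tract, an unbroken run of C and T right at the transcription start, through which the mTOR pathway sets how strongly they are translated. Neurons need new ribosomes for axon growth and for protein synthesis in processes, and control of the ribosomal protein set is largely translational, which an RNA array does not read.

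Promoter sequence shows what the members share beyond their names. RefSeq promoters of the assembly GRCr8 were matched by symbol for 42 of the 47 genes. The windows below run from 30 bases before to 20 bases after the annotated start, on the gene's own strand, and are printed because the levels of these 8 genes are described further on. Capitals mark the longest unbroken run of C and T in the window. Rps24 lies at chr16:96487-96536 (plus strand), Rpl22 at chr5:168117931-168117980 (plus), Rps6 at chr5:106420521-106420570 (minus) and Rplp0 at chr12:46718371-46718420 (minus). Rpsa lies at chr8:128728849-128728898 (plus), Rpl3 at chr7:113507971-113508020 (minus), Rpl7l1 at chr9:21695688-21695737 (plus) and Rpl39l1 at chr10:5966602-5966651 (minus).
Rps24: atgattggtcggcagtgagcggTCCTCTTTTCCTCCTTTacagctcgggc
Rpl22: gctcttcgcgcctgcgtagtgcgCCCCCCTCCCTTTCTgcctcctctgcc
Rps6: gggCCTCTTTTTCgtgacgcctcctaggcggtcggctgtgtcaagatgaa
Rplp0: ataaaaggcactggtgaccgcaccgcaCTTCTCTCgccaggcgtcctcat
Rpsa: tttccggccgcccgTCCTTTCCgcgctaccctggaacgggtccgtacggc
Rpl3: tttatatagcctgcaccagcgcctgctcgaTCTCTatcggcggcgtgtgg
Rpl7l1: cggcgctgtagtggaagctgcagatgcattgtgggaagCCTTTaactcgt
Rpl39l1: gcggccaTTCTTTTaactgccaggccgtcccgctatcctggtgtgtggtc

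The run measured 17 bases in Rps24, 15 in Rpl22, 10 in Rps6 and 8 each in Rplp0 and Rpsa. It measured 5 bases in Rpl3 and in Rpl7l1 and 7 in Rpl39l1. Relative to the annotated start, the run began at -8 in Rps24, -7 in Rpl22, -3 in Rplp0, 0 in Rpl3 and 8 in Rpl7l1. In Rps6, Rpsa and Rpl39l1 it began at -27, -16 and -23 and ended before the start. The counts that follow take runs anywhere in the window, so a counted run need not be a TOP tract. Among the matched members, 33 of 42 (78.6%) held a run of at least 7 C or T bases on the gene's strand in this window, against 27.3% of 11734 genes on the array and 29.6% of all 33469 promoters of the RefSeq table. Without the paralogs the share was 31 of 38 (81.6%). The paralogs held one in 2 of 4. In the full window of 250 bases before to 50 after the start, searched on both strands, the GABP motif CCGGAAG was found in 10 of 42 members (23.8%) and 15.1% of genes on the array. The YY1 motif AAGATGGC was found in 4 of 42 (9.52%) against 4.73%. The SP1 motif GGGCGG was found in 26 of 42 (61.9%) against 57.5%, and TATAAA in 5 of 42 (11.9%) against 8.45%. None of these motifs holds another whole one, while the reverse complement of CCGGAAG can overlap a run of C and T. These are matches of letters and not measured binding.

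In 17 of the arrays the median correlation with the other arrays lay between 0.994 and 0.997. The exceptions were day14 replicate 2 at 0.931 and day49 replicate 2 at 0.968. The beta-actin difference, which is the log2 signal of its 3′ probe set less that of its 5′ probe set and gauges RNA integrity, was 2.24 in day14 replicate 2 and between 0.877 and 1.29 in the 17 arrays. In day49 replicate 2 it was 0.845, below all of them. Both enter the groups of days 14 and 49. The text therefore says at those times which fit a value comes from, that of all 19 arrays or that of the other 17. Day49 replicate 3 is among the 17, with the lowest median correlation of them (0.994) and the highest beta-actin difference (1.29). On it 5.35% of probe sets lay more than 0.5 from the control mean, the highest share of the 17. Over 17 arrays, day 49 rests on replicates 1 and 3. The mean log2 signal of 6 neuronal markers lay between 11.21 and 11.60 on every array. For 4 markers of layer V projection neurons it lay between 6.96 and 7.44. Of the 6 neuronal markers, 2, 3 and 5 were higher than control at days 1, 3 and 7. At day 14 all 6 were lower, with medians of -0.026 with 19 arrays and -0.032 with 17. At day 49, 2 were higher and 4 lower in both fits. Syt1 differed most, by -1.07 at day 49 with 19 arrays and by -0.783 with 17. None was called at any time.

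Ribosomal protein transcripts were bright and steady. The mean log2 signal was 11 or more for 37 of the 47 genes. It was 10.77 for Rpl22, which binds 28S rRNA and is dispensable for translation in most cells, and 8.61 for Rpl7l1. For the other 8 it lay under 8 (Rpl26l1, Rpl28, Rpl30, Rpl39, Rpl39l1, Rpl3l, Rps13 and Rps4y2). A dim signal alone does not show that the transcript is scarce, since probe sets differ in response. The standard deviation within groups over the 17 arrays had a median of 0.060 over the 47 genes, against 0.105 over all 31042 probe sets. For the 37 bright genes it was 0.049, against 0.058 for the 724 other probe sets as bright.

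Rps6, the small-subunit protein that S6 kinases phosphorylate, varied least of all members by the standard deviation over the 17 arrays. Its log2 signal ran from 12.56 to 12.66 over the 17 arrays, with a median of 12.60. Next by that measure came Rpl18, Rpl23, Rpl3 and Rpl7, with standard deviations from 0.033 to 0.034. The largest standard deviations belonged to Rpl22 (log2 signals from 10.48 to 11.05) and to 4 genes of lower signal, Rpl39l1 (3.28 to 3.85), Rpl3l (3.84 to 4.35), Rpl7l1 (8.34 to 8.84) and Rps13 (3.56 to 3.95). Genes of the bright set shifted together from array to array. Over the 666 pairs of bright members, deviations from the group means correlated with a median r of 0.40 over the 17 arrays, and 88.9% of pairs were above 0. Over the pairs of the 724 other bright probe sets the median r was 0.18. These arrays share 1 normalization, so the correlations are a description. Bright 60S genes had a median r of 0.36 and bright 40S genes one of 0.41.

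**Figure D1:**
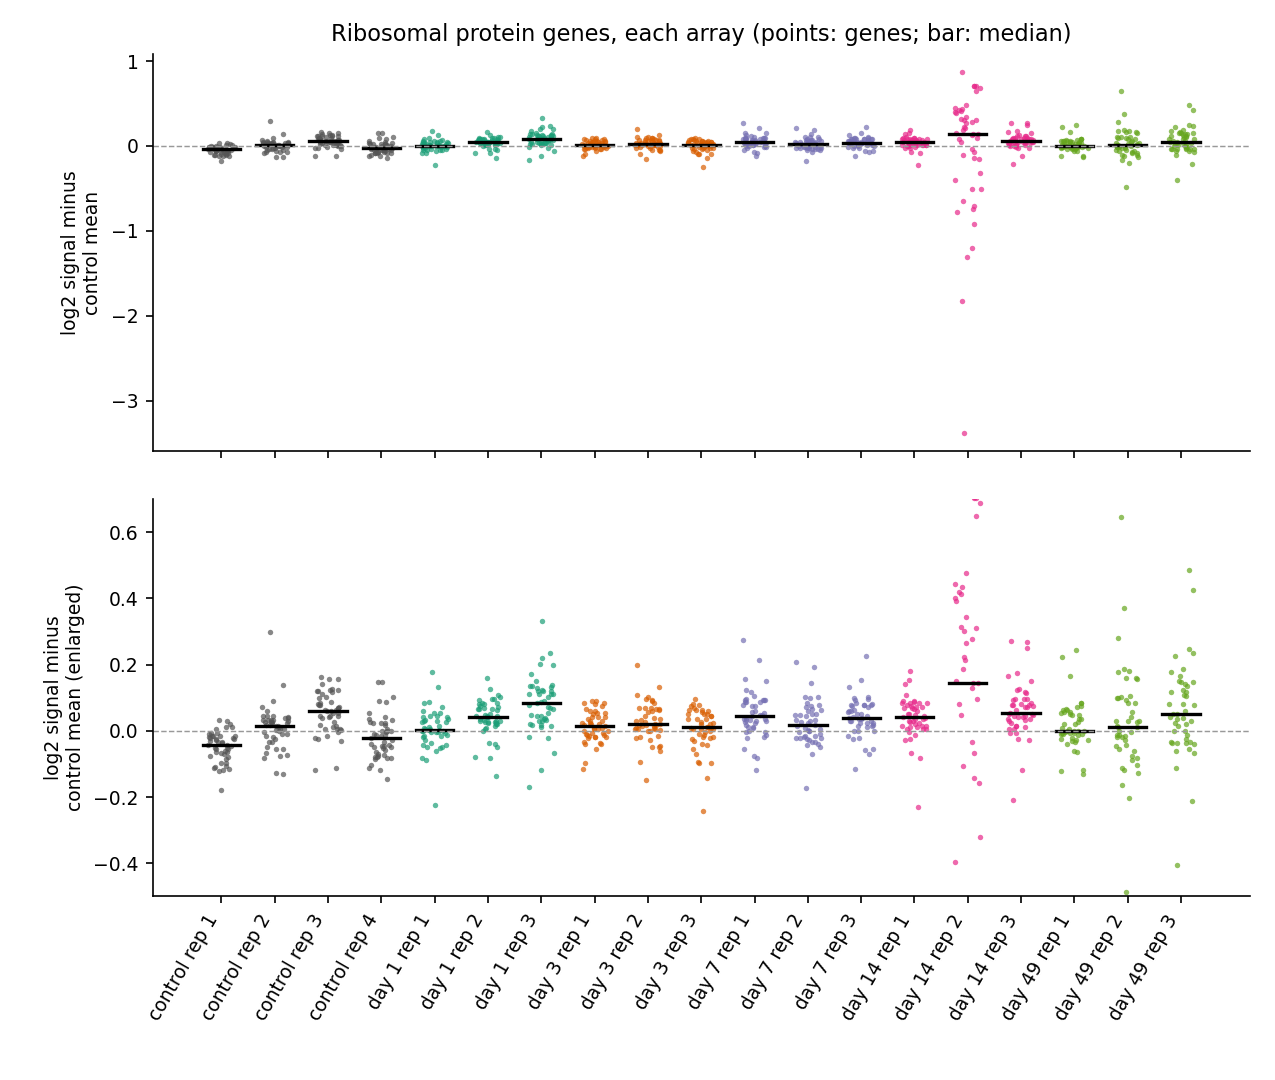
Log2 signal of each of the 47 genes minus its control mean (y axis) on each of the 19 arrays (x axis), coloured by group, with a bar at the median of the genes; the lower panel enlarges the middle of the scale and cuts off the outer points of day14 replicate 2. On 17 arrays every gene lay within 0.5 of its control mean, while genes of day14 replicate 2 ran from -3.39 to 0.87.

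The question put to the time series was whether cutting the corticospinal axons changes ribosomal protein transcripts in the cortex that holds their cell bodies. At day 1 after the lesion 43 of the 47 genes had a higher mean than control, with a median log2 difference of 0.042, and all 37 bright genes were among them. Over all probe sets 53.3% were higher, with a median of 0.007, and of the 761 bright probe sets 373 were higher. The single shifts were small: among the bright genes they ran from 0.0035 in Rpl13a to 0.10 in Rps28. No gene passed the test (0 of 47 by limma, adjusted p under 0.05), where 0.0354% of all probe sets did (11 of 31042). None had an unadjusted p under 0.05, against 1.64% of all probe sets.

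The arrays of the 2 groups overlapped. The shift of 0.042 compares with an SD of 0.0365 between replicate arrays of the median over the genes, pooled over the groups. The median of the 47 genes against the control mean was 0.0032, 0.043 and 0.083 in the 3 day 1 arrays. In the 4 control arrays it was -0.041, 0.014, 0.059 and -0.021. Control replicate 3 lies above 2 of the day 1 arrays. The labels do not mark arrays of like replicate number as pairs, and their deviations from the group means correlated weakly (0.117 to 0.269). Matched by number, the day 1 array was higher each time (0.0032 against -0.041, 0.043 against 0.014 and 0.083 against 0.059). Control replicate 4 has no partner in this matching, which is not established, so no conclusion on a day 1 rise is drawn. With the replicate number as a block the median difference was 0.034, and 0 of 47 genes were called by limma. The highest control array and the highest day 1 array also had the highest beta-actin difference of their groups (1.09 and 1.26). With the beta-actin difference as a covariate over all 19 arrays the median shift at day 1 was 0.046. The slope of that covariate rests largely on day14 replicate 2, at 2.24 against 0.877 to 1.29 in the 17 arrays. The part of RNA integrity in the day 1 and control arrays was therefore not tested. For 2 genes, Rpl7a and Rplp0, the day 1 arrays lay above every control array, where 4.4% of all probe sets did so. Rplp0 forms the base of the stalk that recruits translation factors. Its log2 signals were 11.82, 11.87, 11.93 and 11.92 in control and 11.93, 11.96 and 11.93 at day 1, a difference of 0.060 (SE 0.301 by limma over 19 arrays, adjusted p = 1, and SE 0.048 over 17 arrays, adjusted p = 0.837).

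At day 3 the genes were nearer to control, with 32 of 47 higher and a median difference of 0.016. At day 7, 41 of 47 were higher, with a median of 0.028. By limma 0 of 47 passed at day 3 and 0 of 47 at day 7, and the share of all probe sets called was 0% at both times. The member medians of the day 3 arrays were 0.015, 0.021 and 0.013 and those of the day 7 arrays 0.046, 0.019 and 0.040, all inside the range of the control arrays. At day 3 no gene lay wholly above control (background 2.65%). At day 7 the genes Rpl19, Rpl35 and Rps23 did so, 3 of 47, against 2.86% of all probe sets. No gene had an unadjusted p under 0.05 at either time (background 0.908% and 0.886%).

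**Figure D2:**
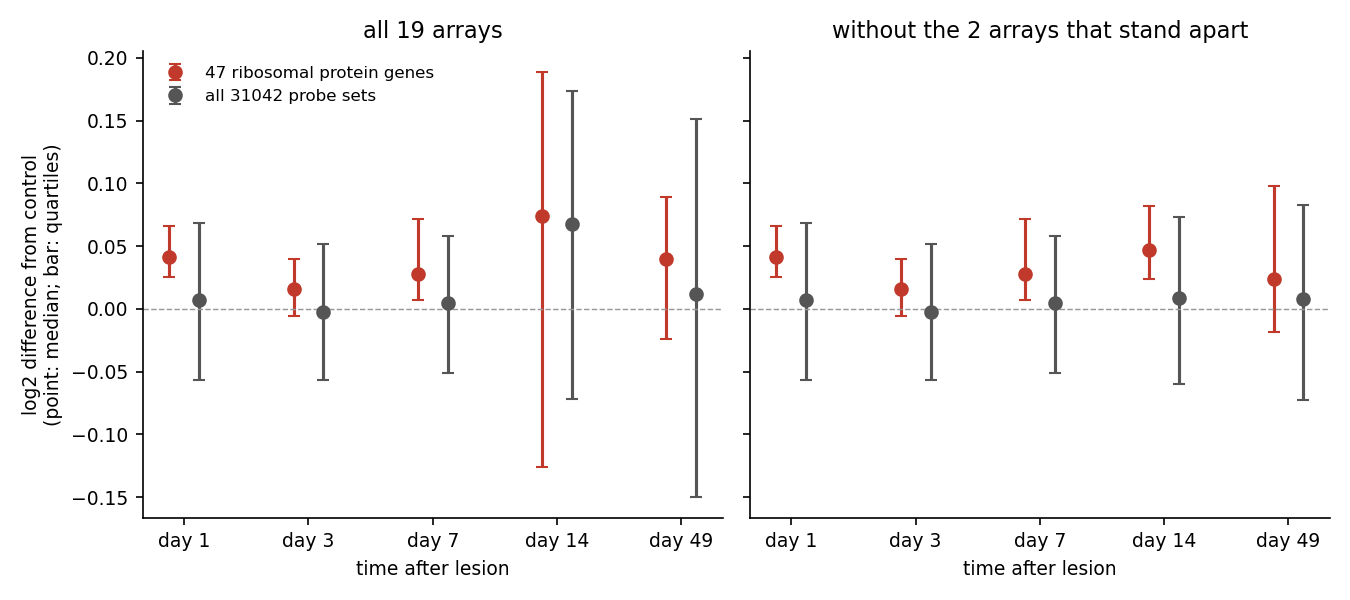
Median log2 difference from control at each time (points) with quartiles (bars) for the 47 ribosomal protein genes and for all 31042 probe sets, over all 19 arrays (left) and without day14 replicate 2 and day49 replicate 2 (right). The gene medians lie between 0.016 and 0.074 with all arrays and between 0.016 and 0.047 without those 2, and the quartiles of the genes and of all probe sets overlap at every time.

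At day 14 the picture depended on 1 array. With all 19 arrays 30 genes were higher and 17 lower, with differences from -1.05 to 0.38. Without day14 replicate 2 and day49 replicate 2, 42 were higher and 5 lower, with a median of 0.047 and differences from -0.17 to 0.21. In neither fit did a gene pass (0 of 47 by limma, background 0%). With 19 arrays 11 genes had an unadjusted p under 0.05 and a higher mean (background 7.07% higher), and with 17 arrays 3 did (3.61%) and 1, Rpl28, was lower (2.07%). The member medians of day14 replicates 1 and 3 were 0.041 and 0.054, below that of control replicate 3 (0.059). Over the 17 arrays, both remaining day 14 arrays lay above every control array for 11 genes (23.4%), where 8.82% of all probe sets did so. These were Rpl7, Rpl12, Rpl19, Rpl22, Rpl23, Rpl26, Rpl35a, Rplp0, Rps13, Rps24 and Rpsa. Since bright members shift together between arrays, these genes are not separate observations.

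Rps24, a 40S protein needed to process the precursor of 18S rRNA, had the smallest p of all members at day 14. Its log2 signals were 12.10, 12.18, 12.24 and 12.09 in control. They were 12.33, 12.86 and 12.33 at day 14, all above the control arrays, and the middle value is that of the array that stands apart. The difference was 0.354 (SE 0.102, adjusted p = 0.365 by limma), and 0.179 (SE 0.060, adjusted p = 0.798) over 17 arrays, a 1.13-fold higher level. At the other times its means were 12.19 at day 1, 12.17 at day 3, 12.25 at day 7 and 12.27 at day 49, against a control mean of 12.15. Its F test over the 5 times gave an unadjusted p of 0.045 and an adjusted p of 0.724. By that F test 0 of 47 genes passed (background 0.0129%) and Rps24 alone had an unadjusted p under 0.05 (background 4.41%).

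Rpl22 had the largest rise in mean of any member at day 1, and at day 14 with all arrays. Its log2 signals were 10.62, 10.71, 10.69 and 10.48 in control, 10.71, 10.72 and 10.96 at day 1, 10.76, 11.49 and 10.75 at day 14, and 10.69, 10.80 and 11.05 at day 49. The day 14 arrays all lay above control, while those of day 1 and day 49 overlapped it. Differences from control were 0.170 at day 1 (SE 0.146), 0.378 at day 14 (SE 0.146) and 0.223 at day 49 (SE 0.146). By limma the adjusted p was 1 at day 1, 0.365 at day 14 and 0.410 at day 49. Over 17 arrays the day 14 difference was 0.131 (SE 0.095, adjusted p = 0.921), below the 0.212 of Rps13, which is the largest there, and the day 49 difference was 0.244 (SE 0.095, adjusted p = 0.321). The 3 arrays with the highest Rpl22 signal were also the 3 with the highest beta-actin difference, at 2.24 (day14 replicate 2), 1.29 (day49 replicate 3) and 1.26 (day1 replicate 3). With that difference as a covariate the rises were 0.120, 0.125 and 0.161.

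**Figure D3:**
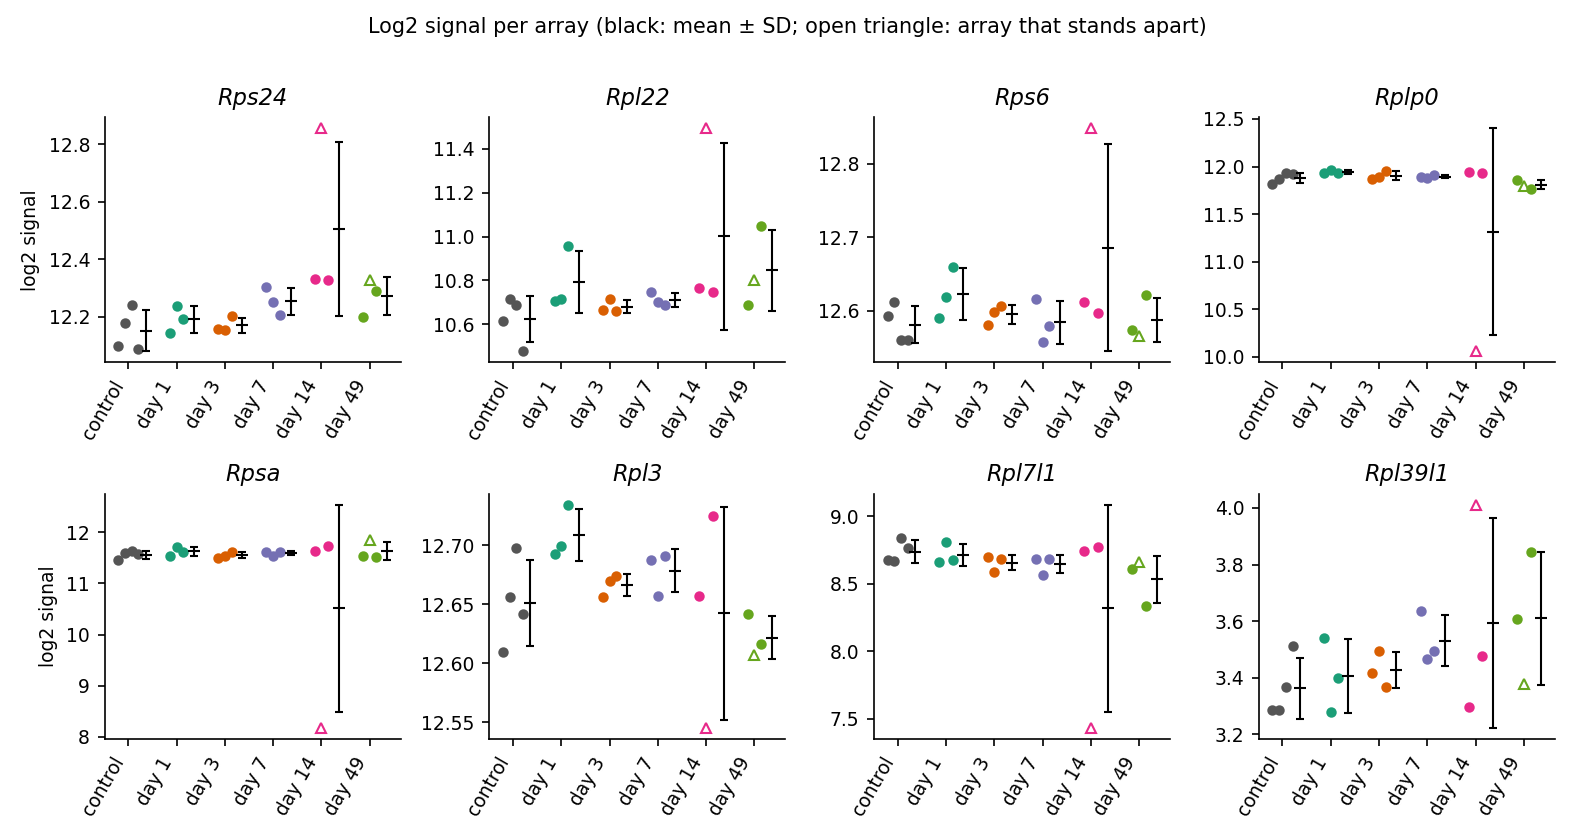
Log2 signal (y axis) of 8 genes on every array by group (x axis), with mean and SD in black and an open triangle for day14 replicate 2 and day49 replicate 2. Each panel has its own scale. Rps24, Rpl22 and Rps6 are highest on day14 replicate 2, on which Rplp0, Rpsa, Rpl3 and Rpl7l1 are lowest; Rpl39l1 and Rpl7l1 show the day 49 arrays of highest and lowest signal among the 17 arrays.

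In day14 replicate 2, 17 of the 47 genes (36.2%) lay more than 0.5 from the control mean on the log2 scale, as did 36.6% of all probe sets. Among bright genes it was 13 of 37, against 34.2% of bright probe sets. Ribosomal protein genes were therefore displaced about as often as others, and in both directions: 6 were up and 11 down. The largest drop belonged to Rpsa, a 40S protein also known as the laminin receptor precursor. Its log2 signals at day 14 were 11.63, 8.18 and 11.73, against 11.45 to 11.63 in control, so the array that stands apart differed by -3.39 from the control mean and the other 2 lay just above the control arrays. Both further probe sets of Rpsa were low on the same array, by -1.11 and -1.62. Rplp0 read 11.95, 10.06 and 11.94, a difference of -1.82 from the control mean on the same array. Rpl7l1, Rpl6, Rps3, Rps16, Rpl18, Rps4y2, Rps15, Rpl4 and Rpl7a were also lower by more than 0.5 on this array, and Rpl22, Rps24, Rps28, Rpl35, Rpl23a and Rpl39l1 higher. Further probe sets did not always follow the chosen one. Those of Rpl7l1, Rpl14 and Rpl3 differed by 0.359, 0.511 and 0.596 on this array, where the chosen ones differed by -1.31, -0.320 and -0.106. Those of Rpl7 and Rps24 had the sign of the chosen ones.

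The group means of these genes followed the single array. At day 14 Rpsa differed from control by -1.05 (SE 0.556, adjusted p = 0.371 by limma) with all arrays and by 0.117 (SE 0.067, adjusted p = 0.898) over 17 arrays. For Rplp0 the values were -0.568 (SE 0.301) and 0.060 (SE 0.055). For Rps3, which lines the mRNA entry channel of the small subunit, they were -0.292 (SE 0.159) and 0.020 (SE 0.061). The sign turned in all 3. In day49 replicate 2, by contrast, 34.1% of all probe sets but only Rpl3l among the 47 genes (2.13%) lay more than 0.5 from the control mean. Brightness went with this too: none of the 37 bright members and 1.05% of bright probe sets did so. No test of that difference was made, as it concerns 1 array.

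At day 49, 29 genes were higher and 18 lower than control, with a median of 0.040, and 31 and 16 with a median of 0.024 over 17 arrays. By limma 0 of 47 passed (background 0%). With all arrays 1 gene, Rps13, had an unadjusted p under 0.05 with a higher mean (background 9.44%). Over 17 arrays 3 genes, Rpl39l1, Rpl39 and Rpl22, had a higher mean at that level (4.7%) and Rpl7l1 a lower one (7.34%). Each of these genes lay further from its control mean on day49 replicate 3 than on replicate 1. The member medians of the day 49 arrays were -0.00049, 0.013 and 0.052, inside the control range. With all arrays, the day 49 arrays lay above every control array for Rpl19 (1 of 47, background 5.27%) and below for Rpl7l1 (1 of 47, background 4.8%).

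Beside Rpl22, paralogs and dim probe sets held the largest single differences at day 49. Rpl39l1, a paralog of the exit-tunnel protein Rpl39, read 3.28, 3.29, 3.37 and 3.51 in control and 3.61, 3.38 and 3.85 at day 49. The second of these, from day49 replicate 2, falls within the control arrays and the other 2 above them. The difference was 0.248 (SE 0.142, adjusted p = 0.366 by limma) with all arrays and 0.364 (SE 0.094, adjusted p = 0.226) over 17 arrays. Its signal lies near the floor of the array, so these differences are uncertain. Rpl7l1, a paralog of Rpl7 found in precursors of the large subunit, read 8.68, 8.67, 8.84 and 8.77 in control and 8.61, 8.66 and 8.34 at day 49, all below control. It differed by -0.205 (SE 0.224, adjusted p = 0.617), and by -0.267 (SE 0.080, adjusted p = 0.228) over 17 arrays. Rpl3l, a paralog of Rpl3 known from striated muscle, was as near the floor, at 3.93 to 4.35 in control. Rpl26l1 differed from control at day 49 by -0.134 with all arrays and by 0.041 over 17.

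Weighting the arrays by their estimated quality changed the count at day 49. With limma's array weights 11 of 47 genes (23.4%) were called at day 49, and so were 21% of all probe sets, so the members were called about as often as the rest. Of these, 10 were higher (Rpl21, Rpl22, Rpl26, Rpl27, Rpl35, Rpl39, Rpl39l1, Rps23, Rps28 and Rps29) and Rpl7l1 was lower. This result rests on 1 array, since day49 replicate 3 received a weight of 3.70, and replicates 1 and 2 received 0.385 and 0.067. On day49 replicate 3 the beta-actin difference was 1.29, the highest among the 17 arrays. Its part in the result was not tested. With the same weights 2 genes, Rpl39l1 and Rpl7l1, were called between day 14 and day 49 (background 9.62%) and 5 by the F test (background 20.7%). From day 14 to day 49 Rpl39l1 differed by 0.457 with the weights and by 0.015 with equal weights. For Rpl7l1 the sign turned, from 0.217 with equal weights to -0.376 with the array weights.

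Between successive times the genes moved by as little. From day 1 to day 3, 38 of 47 genes were lower, with a median of -0.030, and from day 3 to day 7, 38 were higher, with a median of 0.023. No gene passed in either (0 of 47 by limma in each, background 0.0258% and 0%), and none had an unadjusted p under 0.05 (background 1.85% and 0.561%). Rpl3, which lies near the peptidyl transferase centre, was among 4 genes lower in every day 3 array than in every day 1 array, where 8.89% of all probe sets were. The others were Rpl7a, Rpl18 and Rpl37a. With 19 arrays the median was 0.041 from day 7 to day 14 and -0.034 from day 14 to day 49, with 0 of 47 called in each (background 0% for both). Unadjusted p-values under 0.05 went to 2 genes that were higher at day 14 than at day 7, Rps24 and Rpl23 (background 3.81%), and to 3 that were lower at day 49 than at day 14, Rpl26l1, Rpl23 and Rps24 (background 11.4%). Over 17 arrays the medians were 0.020 and -0.023, with 0 of 47 called by limma in each (background 0% for both). None of the 47 then had an unadjusted p under 0.05 from day 7 to day 14 (background 3.84%). From day 14 to day 49, Rpl39l1 was higher at that level (2.01%) and Rpl7l1 lower (3.55%). These pairs share groups with the comparisons against control and repeat the same arrays.

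The large and the small subunit gave like medians. For the 29 genes of the 60S subunit the median difference from control was 0.050 at day 1, 0.015 at day 3, 0.041 at day 7, and over 17 arrays 0.047 at day 14 and 0.033 at day 49 (0.074 and 0.028 with 19). For the 14 genes of the 40S subunit the values were 0.042, 0.018, 0.026, 0.051 and 0.020 (0.084 and 0.057 at days 14 and 49 with 19 arrays). All 14 were higher at day 1, as were 27 of the 29, with Rpl28 (-0.066) and Rpl39 (-0.0055) the exceptions. The 4 paralogs were higher in 2 and lower in 2, with a median of -0.0047.

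Members with roles outside the ribosome were not called either. Rpl5 and Rpl11, which bind the 5S rRNA and with it the p53 ligase Mdm2, differed from control at day 1 by 0.050 (SE 0.077) and 0.018 (SE 0.064). At day 14 they differed by 0.138 (SE 0.077) and -0.0029 (SE 0.064) with 19 arrays and by 0.056 (SE 0.069) and 0.068 (SE 0.054) over 17. Rpl26, which also binds p53 mRNA, was among the 5 genes of smallest p in each of the 5 comparisons with control, with differences of 0.094, 0.065, 0.081, 0.155 and 0.120 over 19 arrays (SE 0.065 each). Over 17 arrays the day 14 difference was 0.093 (SE 0.059) and the day 49 difference 0.101 (SE 0.059). With 19 arrays its adjusted p by limma was 0.353 at the lowest. These comparisons share the 4 control arrays, in which Rpl26 read 12.50, 12.57, 12.64 and 12.57. Rpl13a, which leaves the ribosome to silence inflammatory mRNAs, differed by 0.0035 at day 1 (SE 0.068). At day 14 its sign turned with the arrays used, from 0.036 (SE 0.068) with 19 to -0.018 (SE 0.064) with 17. Rps9, a protein of the decoding region, differed by 0.076 at day 1 (SE 0.064), and Rps6 by 0.042 (SE 0.064).

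How large a change these arrays leave room for can be read from the intervals. With 17 arrays the 95% interval of the difference from control lay within 0.5 on the log2 scale, or 1.41-fold, for 47 of 47 genes at days 1, 3, 7 and 14 and for 46 at day 49, the exception being Rpl39l1. It lay within 0.25, or 1.19-fold, for 44, 44, 42, 37 and 36 genes in order of time. With all 19 arrays 43, 44, 44, 33 and 42 genes lay within 0.5, and 24, 28, 23, 12 and 23 within 0.25. The shared estimate of the spread then holds the array that stands apart. The intervals are unadjusted for the number of genes, and RMA sets all arrays to 1 distribution, so a shift shared by all transcripts would not appear in them.

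**Figure D4:**
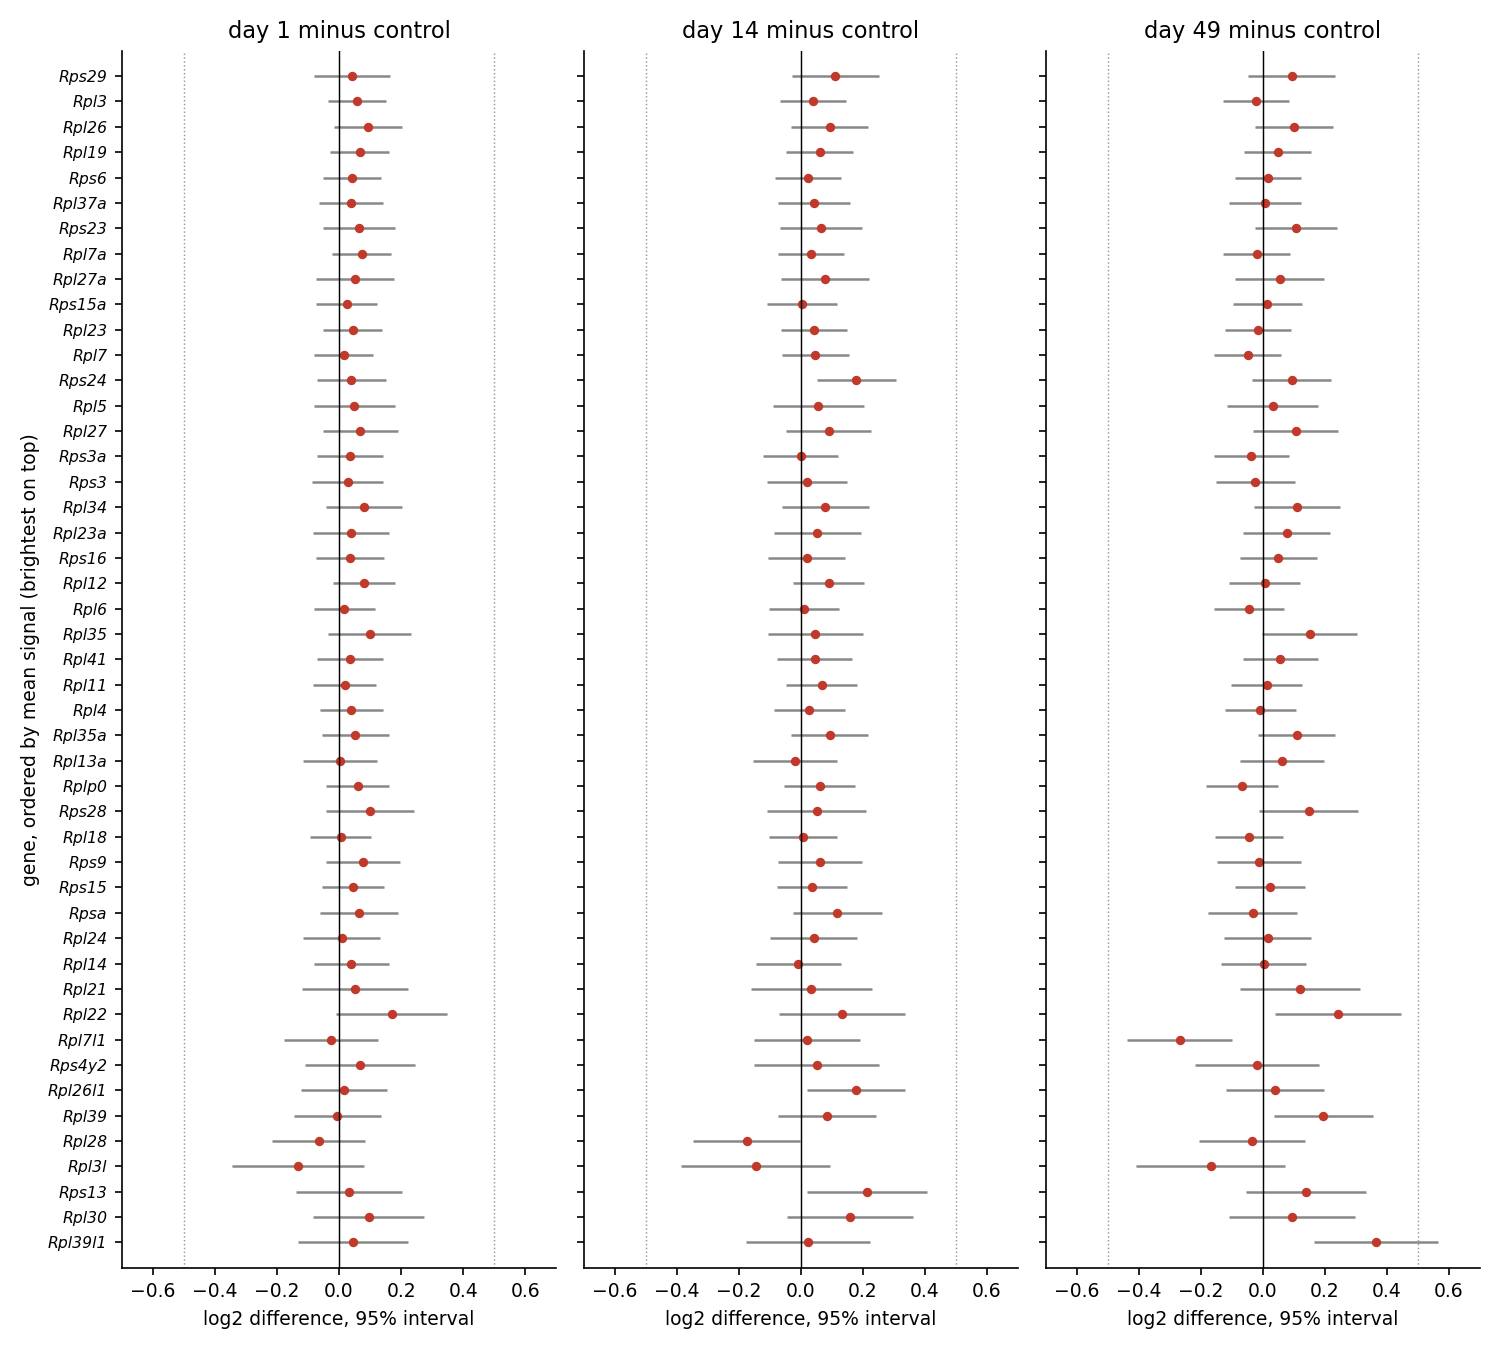
Log2 difference from control (point) and its 95% interval (line) for each of the 47 genes, ordered by mean signal, at days 1, 14 and 49 in the fit of 17 arrays; dotted lines mark 0.5 either way. At day 1 every bright gene has its point to the right of 0 and an interval that holds 0. At day 49 the interval of Rpl39l1 reaches past 0.5.

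Probe sets that could not be assigned to 1 gene gave like values. There were 35 probe sets annotated to several symbols of which at least 1 is a ribosomal protein name. At day 1, 33 of the 35 were higher than control, with a median of 0.062, and at day 14, 24 were higher (32 over 17 arrays). None was called at any time. The bright probe sets of Rpl28, Rpl30 and Rps13 are among them, so these 3 genes are represented above by dim ones. A further 7 probe sets belonged to 6 of the members; 6 of the 7 had the sign of the chosen probe set at day 1 and 2 of the 7 at day 49.

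Other genes of ribosome production and its control were taken as lists, beside all probe sets. Of 73 genes for mitochondrial ribosomal proteins, 41 were higher at day 1, with a median of 0.012. At day 49 their direction turned with the arrays used: 35 were higher and 38 lower with 19 arrays (median -0.0026), and 43 higher and 30 lower with 17 (median 0.020). Of 52 ribosome biogenesis factors, 34 were higher at day 1 (median 0.026). Of 14 RNA polymerase I subunits and factors, which transcribe rRNA, 11 were higher at day 1 (median 0.059). In each of these lists 0 were called in any comparison with control over 19 arrays. Over 17 arrays 1 polymerase I factor passed: Taf1b, a subunit of the selectivity factor SL1, fell by 0.285 at day 1 (adjusted p = 0.046 by limma), from a control mean of 6.91 ± 0.040 (SD, n = 4) to 6.62 ± 0.10 (SD, n = 3), where 0.219% of all probe sets passed. With all 19 arrays its adjusted p was 1.

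Among TOP-linked genes, genes of mTOR, Myc and TOP control, and tRNA synthetases, none was called against control in either fit. Of 12 genes, most of them translation factors, whose mRNAs are linked to TOP tracts, 8 were higher and 4 lower at day 1 (median 0.034), and at day 49, 2 were higher and 10 lower with 19 arrays (median -0.055) and 4 higher and 8 lower with 17 (median -0.065). Eif3a, the largest subunit of initiation factor 3, had the smallest F test p among them, with an adjusted p of 0.724 by limma. Of 26 genes of mTOR, Myc and TOP control, 13 were higher and 13 lower at day 1, with a median of 0.0018. Sesn3, a sensor that holds back mTOR, had the smallest F test p there, also at an adjusted 0.724. Of 19 tRNA synthetases, 12 were higher at day 1 (median 0.0064). Rack1, a scaffold on the 40S subunit, differed from control by -0.0092 at day 1 and by at most 0.048 in size at any time over 17 arrays.

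Markers of other cells are given beside the members. Of 6 meningeal markers 5 were lower at day 1, 6 at days 3 and 7 and 5 at day 49, with medians of -0.23, -0.23, -0.17 and -0.25 with all arrays. At day 14, 2 of the 6 were lower with 19 arrays (median 0.010) and 5 with 17 (median -0.085). None was called with 19 arrays, and over 17 arrays Lum, a proteoglycan of connective tissue, was called at day 1 with a difference of -0.928 (adjusted p = 0.041 by limma). The mean of their log2 signals ran from 9.32 to 9.57 in control and from 8.99 to 9.42 at day 1. Both red blood cell markers were lower at days 1, 3 and 49, with medians of -0.22, -0.30 and -0.28 with all arrays. Both were higher at day 7 (median 0.160), and at day 14, 1 was higher and 1 lower with 19 arrays and both were higher with 17. Their mean signal ran from 7.55 to 8.70 in the control arrays. Endothelial markers had a median difference of 0.12 at day 1 with 4 of 5 higher, microglial markers 0.12 with 4 of 6, oligodendrocyte markers 0.063 with 4 of 5 and leukocyte markers -0.065 with 1 of 3. Of 6 astrocyte markers 5 were higher at day 1 with a median of 0.035, and their mean signal was 6.46 to 6.50 against 6.28 to 6.37 in control. The astrocyte filament gene Gfap differed most among them at day 1, by 0.635 (SE 0.153, adjusted p = 0.615 by limma, and 0.098 over 17 arrays). With 19 arrays Gfap differed by -0.198 at day 3, 0.113 at day 7, 0.702 at day 14 and 0.0099 at day 49. At day 14 its adjusted p by limma was 0.365, and 0.306 over 17 arrays, where the difference was 0.842. Ribosomal protein mRNAs occur in all these cells, and the part of cell makeup in their small shifts was not tested.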

How the data were processed

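The authors deposited log2 signals, 1 per probe set and array, made with RMA per the submitters' processing notes, with no version given there. RMA corrects background, makes the arrays' distributions equal and summarises the probes. Scan dates and batches were not analysed here, so whether batches coincide with the groups is not known. The number of arrays limits the precision.

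The table held 31099 probe sets. The 57 array controls served for array quality only, so 31042 were tested. The platform's symbols were brought up to date by gene ID: 1 symbol was found for 20826 probe sets, several for 436 and none here for 9780. Members were then chosen by name, and 7 S6 kinases, 2 pseudogene names and 1 paralog with no parent among the members (Rps27l) were left out. The members, the gene lists and the rule for named genes were chosen with earlier results of these data known.

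All 31042 probe sets were fitted with limma 3.58.1 in R 4.3.3, as 6 group means over 19 arrays with eBayes defaults (13 residual and 2.76 prior degrees of freedom). Tests were two-sided with Benjamini-Hochberg adjustment over all probe sets and a threshold of 0.05. There were 9 comparisons and an F test of the 5 differences from control. Named were members that passed or, failing that, those with the 5 smallest p-values, the 2 largest rises and falls per time, members of known extra roles, all paralogs, and the 5 members of largest and of smallest spread. Of the other lists, the genes of smallest F test p could be named.

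Alternatives were centring, renewed quantile normalization, a filter on dim probe sets, trend and robust eBayes, array weights, 17 arrays, the beta-actin difference as a covariate, the replicate number as a block, only the 2 groups, the mean over all probe sets of a gene, and each array left out. Chosen after seeing the data were 17 arrays with the block, members with a mean signal of 8 or more, and probe sets of several symbols added. All groups use the same replicate numbers, with no word in the labels on a shared day or litter. Deviations of day 1 and control arrays of like number correlated by 0.166, 0.117 and 0.269, which is over 0.1 in every pair, and in no other comparison was every pair over 0.1. Day 7 and control came close, at 0.0935, 0.115 and 0.265, so these weak correlations do not establish a pairing. The fit was tested on simulated data, for the comparison of day 1 with control over 31042 probe sets. It recovered 25 of 50 changes of 0.5 and 38 of 50 of 1 on the log2 scale. Of changes of 2 and 3 it recovered 50 of 50 and 49 of 50. There were 7 false calls. Whether these rates hold for the measured arrays, where 2 arrays stand apart and bright members shift together, was not tested. Promoter windows were read in Python 3.11.15 and plots drawn with matplotlib 3.10.9.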

Additional observations from a re-analysis of the deposited data

Results flagged for a closer look

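Among 29 named genes and the median of the members, 2 had 1 of the 4 control arrays far from the other 3 by Dixon's ratio; chance flags about 1 in 20 groups, and 30 were tested. Rpl3l, a dim probe set, read 4.35 in control replicate 2 against 3.93 to 3.98 in the other control arrays (gap over range 0.897). Rpl7 read 12.20 in control replicate 1 against 12.27 to 12.28 in the others (gap over range 0.856), a gap that is narrow on the log2 scale.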

How the results depend on the processing

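The count of members called was 0 in 204 of 207 alternative counts over 10 results. The 3 exceptions came with array weights, which called 11 at day 49, 2 between day 49 and day 14 (Rpl39l1 and Rpl7l1) and 5 by the F test (Rpl22, Rpl39, Rpl39l1, Rpl7l1 and Rps24), where 21%, 9.62% and 20.7% of all probe sets were called; the first rests on day49 replicate 3. Of 185 alternative values of the median difference, 3 moved by more than the spread of 0.0365 between replicate arrays. At day 14 the median was 0.033 with the beta-actin covariate and 0.037 with 17 arrays and the replicate block, against 0.074; between day 49 and day 14 it was 0.0067 with array weights, against -0.034. The cause was not tested. With the replicate block the median was 0.034 at day 1, against 0.042, and the block changed no count of calls. The labels do not say that like numbers mark paired arrays. Leaving out 1 array gave medians from 0.026 to 0.064 at day 1, from 0.0027 to 0.033 at day 3, from 0.019 to 0.051 at day 7, from 0.047 to 0.097 at day 14, the lowest without day14 replicate 2, and from 0.010 to 0.058 at day 49. Of 37 pairs of named gene and comparison, 32 kept their sign in every alternative; of 435 values 14 had the other sign, in 5 pairs, Rplp0 and Rpsa at day 14, Rpl26l1 at day 49, Rpl28 at day 1 and Rpl7l1 at day 7. Dim probe sets limit what can be said of the 8 members under a log2 signal of 8, Rpl39l1 and Rpl3l among them.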
